A study of Mesocricetus auratus with 64 samples.

Results

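The first hours of the hamster embryo were followed here in 4 long RNA libraries of wild-type golden hamsters (Mesocricetus auratus, breed Syrian), 2 labelled WT-MII and 2 labelled WT-10PEA. They are 4 of the 64 samples of a series on wild-type and Pld6-deficient hamsters, 32 of which are long RNA samples, and were taken as all the long RNA libraries of these 2 groups. MII marks oocytes arrested at metaphase of the second meiotic division, and the 10PEA libraries come from embryos. The labels do not spell out PEA, give no hour, and do not say how the eggs were activated or whether they were fertilised. Both groups are wild type, with no transgene, drug or other treatment named. Each library was made from a single oocyte or embryo by a modified Smart-seq2 method, which received ERCC RNA, a set of artificial transcripts, as a spike-in (0.125 µL, diluted 100000-fold). No female is named for any of them, so p-values measure the spread between 2 libraries per group, part of which may be technical.

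As background, a mature mammalian egg makes almost no new RNA. It lives on messages stored during growth, and sperm entry starts calcium waves that release it from metaphase arrest, harden its coat and send it into the first mitotic cycle. Stored messages are then either read, often after their poly(A) tail is lengthened, or shortened at the tail and destroyed. Smart-seq2 primes cDNA at poly(A) tails, so a message with a longer tail and a message present in more copies cannot be told apart in these counts.

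The MII libraries held 8928993 and 11031837 counts on genes, and the 10PEA libraries 9218151 and 8826096, with 13138 to 14941 genes counted. Replicates resembled each other more than they resembled the other stage, with a Pearson correlation of log2 levels of 0.941 within MII and 0.937 within 10PEA against 0.855 to 0.888 between them (11568 genes, which are not independent). All 13 oocyte markers were counted in every library and summed to 5670 and 6110 CPM at MII and to 7560 and 6904 CPM at 10PEA. Of 19 granulosa and cumulus cell markers, 14 to 17 were at 0 in a library, among them Fshr, Lhcgr, Has2 and Ptx3 in all 4, and the whole list summed to 8.52 to 22.8 CPM. Of 16 sperm and spermatid markers 10 to 12 were at 0, with sums of 69.4 to 124 CPM, most of it from Odf2, a gene with a centrosomal role too. The 22 markers of blood, leukocytes, vessels, fibroblasts and epithelium summed to 98.02 and 88 CPM at MII and to 741 and 620 CPM at 10PEA, with 15 to 18 of them at 0 in a library and Ptprc, Cd3e, Pecam1 and Col1a1 at 0 in all 4. The higher sum came from Csf1r, a receptor kinase gene of macrophages, at 49.01 and 36.3 CPM in MII and 565 and 488 CPM in 10PEA, and from Krt8, a keratin. Levels throughout are counts scaled to library size after TMM, called CPM.

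Between MII and 10PEA, 1286 of 11568 genes tested passed the threshold of an adjusted p of 0.05 (11.1%), 670 of them higher at 10PEA (5.79%) and 616 lower (5.33%). With TMM the rises were the larger. Their median was 2.18 on the log2 scale, 395 were at least 4-fold, and 32 had no count in either MII library. Falls had a median of −1.48, 115 were at least 4-fold, and 3 had no count in either 10PEA library. Scaled to ERCC counts, the medians of the same genes were closer in size, at 1.91 for rises and −1.71 for falls. Without WT-10PEA replicate 2 the count of falls was 271, beside 597 rises. Rises started at a median of 12.9 CPM in MII, near the 11.9 CPM of all genes tested, and reached 57.7 CPM. Falls started at 206.5 CPM and ended at 75.4 CPM. All 1286 separated the libraries of the groups without overlap, as 57.8% of all genes tested did, 30.9% higher and 26.9% lower. Of the rises, 611 were protein-coding and 58 lncRNA genes, and of the falls 588 and 28, while all genes tested were 86.5% protein-coding and 13.4% lncRNA.

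**Figure D1:**
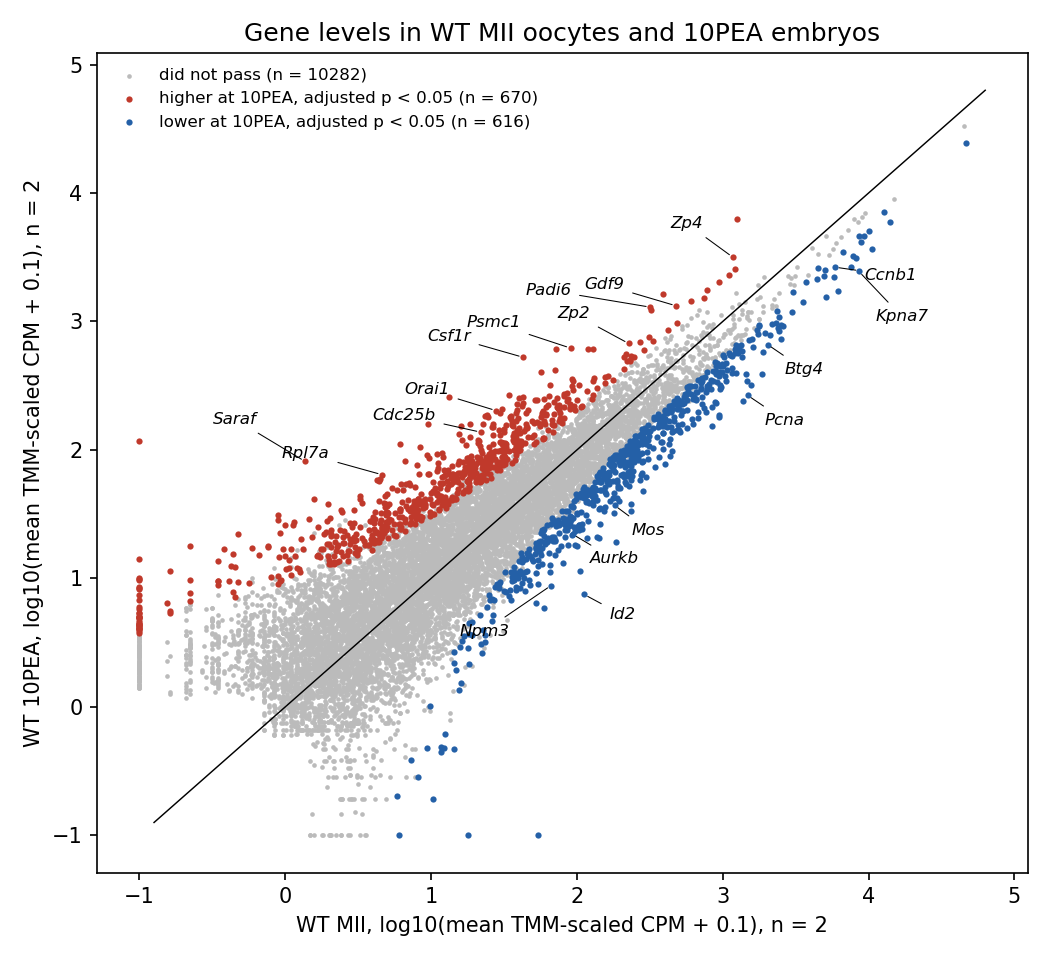
Mean level of each of the 11568 genes tested in WT MII oocytes (horizontal) and WT 10PEA embryos (vertical), both as log10 of TMM-scaled CPM plus 0.1, with n = 2 libraries each; the line marks equal levels. Red marks the 670 genes that passed higher and blue the 616 that passed lower: most blue points lie at high MII levels and most red points at low to middle ones.

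These directions are shares of the library's RNA, and the spike-in bore on them. Gene counts per ERCC count were 99.2 and 48.7 in the MII libraries and 64.9 and 25.8 in the 10PEA libraries. In both groups replicate 1 had the higher value. The groups overlap, and their log2 difference of −0.76 had a two-sided exact permutation p of 0.667, where 2 against 2 libraries allow no p under 0.333. On the log2 scale the 2 libraries of each group lay further apart than the group means did. Scaled to ERCC counts, 3 genes passed (0.0259%), 1 higher (0.00864%) and 2 lower (0.0173%), with 398 at an unadjusted p under 0.05. Without WT-10PEA replicate 2 there were 5 higher and 0 lower, without replicate 1 of that group 1 and 0, and without either MII library 0 and 0. DESeq2 with the same scaling called 21 higher and 10 lower. With the replicate number as a block, ERCC scaling called 405 higher (3.5%) and 1063 lower (9.19%). Library sizes with no further factor gave 1122 higher and 231 lower, 82.9% higher against 52.1% with TMM, and raised the median of all genes from 0.09 to 0.48. ERCC scaling moved that median by −0.32, to −0.23. All 1286 genes kept their sign under each of these scalings, but with TMM each had changed by at least 0.80 on the log2 scale. The scalings moved the median of all genes by less than that, so a reversal was unlikely from the start. Of 18 gene lists described below, only those of calcium signalling, of the zona pellucida and cortical granules and of autophagy had a median of 1 sign under all 4 scalings (TMM, RLE, ERCC and library size). All 18 were above 0 with library size alone. Medians below use TMM and are read against 0.09 for all genes, and the share of a list that passed against the 11.1% of all genes, 5.79% higher and 5.33% lower.

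The 3 genes that passed in both scalings carry no gene name. LOC121144049, listed as protein-coding in RefSeq, had no count in MII and stood at 120 and 113 CPM in 10PEA, at least 674-fold higher when the MII group is given a floor of 3 counts in all (adjusted p = 0.000461). LOC101832666, also protein-coding, had 78.1 and 30.02 CPM in MII and no count in 10PEA, at least 360-fold lower (adjusted p = 0.00305). The lncRNA LOC110340463 had 18.8 and 17.0 CPM in MII and none in 10PEA, at least 122-fold lower (adjusted p = 0.00396). They are given here for their place in the spike-in scaling, after their values were seen.

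Of 22 genes tested that receive the sperm or carry the calcium signal, 4 rose and 1 fell, a share of 22.7% against 11.1% of all genes, with a median of 0.74. Izumo1r, which encodes the egg-surface receptor for sperm, stood at 359 and 425 CPM in MII and at 1967 and 1326 CPM in 10PEA (log2 2.07, SE 0.28, adjusted p = 0.00459). Orai1, the calcium channel of the plasma membrane that refills emptied stores, went from 22.5 and 33.2 CPM to 170 and 234 CPM (log2 2.86, SE 0.35, adjusted p = 0.0037). Both were far above every MII library in both embryos. The pump that loads calcium back into the endoplasmic reticulum, Atp2a2, rose (log2 1.36, adjusted p = 0.0342), as did the kinase gene Src from about 2 CPM (log2 2.99, adjusted p = 0.0382). The store channel gene Itpr1 had 119 and 58.1 CPM in MII and 74.3 and 69.3 CPM in 10PEA, with overlapping libraries. Without WT-MII replicate 2 there were 2 rises. The median of the list was 0.04 without that library and 0.17 without WT-10PEA replicate 2. The calls of Atp2a2 (without WT-MII replicate 2) and of Src (without either MII library or WT-10PEA replicate 1) were lost. Here and below, "without either" means that leaving out each of the 2 libraries alone ended the call.

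The coat and cortex list covers the zona pellucida and the granules whose release alters it, and also holds Padi6, a gene of neither. It had 3 rises, among them Padi6, 1 fall and a median of 0.51 over 21 genes (19.05% passed, against 11.1% of all genes). The median was 1.04 without WT-MII replicate 1, where there were 2 falls, and there were 0 falls without WT-MII replicate 2 and without WT-10PEA replicate 2. Zp2, the zona protein that is cleaved after fertilisation, stood at 249 and 203 CPM in MII and at 667 and 681 CPM in 10PEA (log2 1.58, SE 0.26, adjusted p = 0.00719). Zp4 went from 1035 and 1309 CPM to 3333 and 3000.2 CPM (log2 1.43, SE 0.24, adjusted p = 0.00826). Padi6, a protein of the cytoplasmic lattices beneath the cortex, went from 335 and 301 CPM to 1450.4 and 1135 CPM (log2 2.02, SE 0.26, adjusted p = 0.00409). The other zona genes did not pass. Zp3, the sperm-binding partner of Zp2, stood at 478 and 749 CPM and then at 333 and 270.2 CPM, with an adjusted p of 0.0512, and Zp1 at 172 and 313 CPM and then at 228 and 222 CPM. Astl, whose protease cleaves the Zp2 protein, had 426 and 395 CPM in MII and 290.4 and 281 CPM in 10PEA (adjusted p = 0.209). Rab3a, a small GTPase of granule release, fell from a low level (26.9 and 38.4 to 10.4 and 5.18 CPM, adjusted p = 0.0332), a call lost without WT-MII replicate 2 or WT-10PEA replicate 2.

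**Figure D2:**
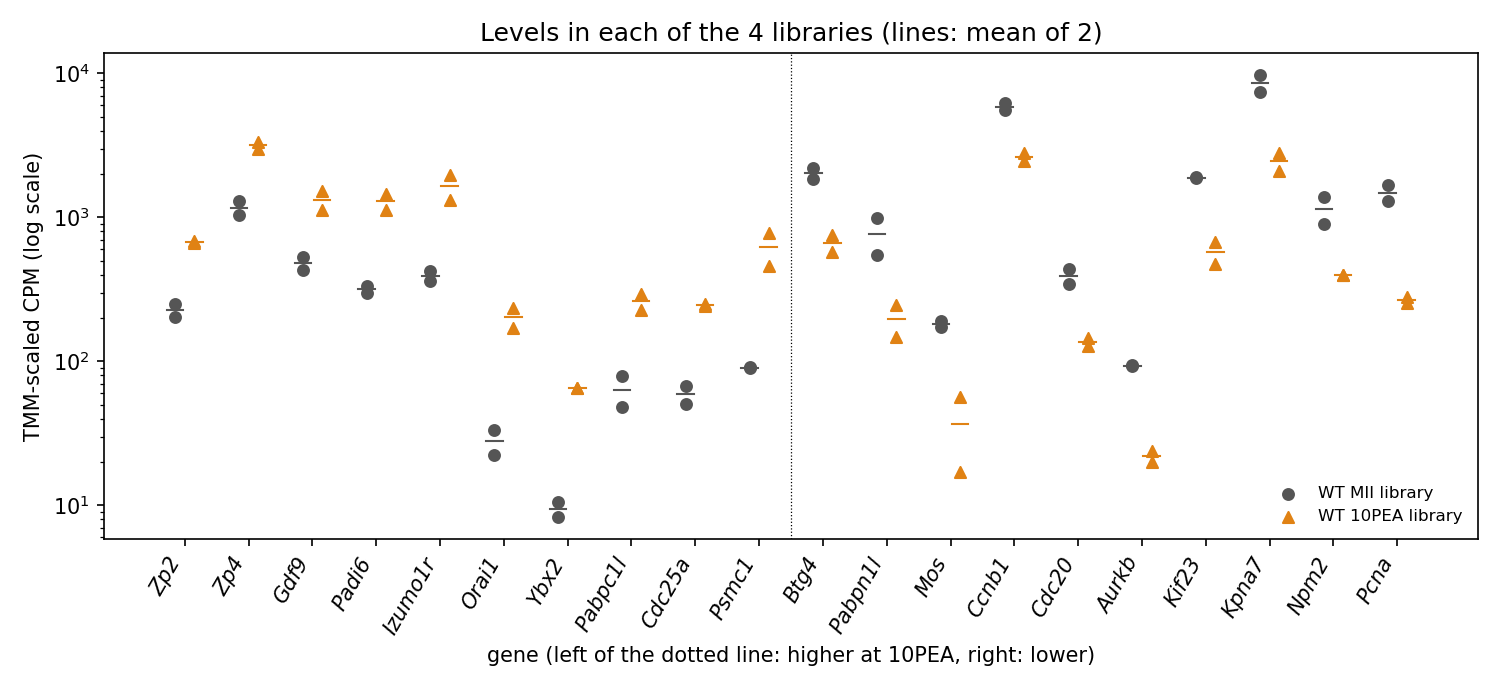
Level of 20 genes in each library, as TMM-scaled CPM on a log axis; circles are the 2 WT MII libraries, triangles the 2 WT 10PEA libraries and short lines the mean of each pair. The 10 genes left of the dotted line are higher in both 10PEA libraries than in either MII library. The 10 to its right are lower in both. All 20 were picked from genes that passed, which all separate the groups in this way, as 57.8% of all genes tested did. Mos has the widest gap between its 10PEA libraries.

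Among 49 genes of metaphase arrest and its release, 4 rose and 7 fell (22.4% passed, against 5.79% higher and 5.33% lower over all genes), with a median of −0.34. DESeq2 called 5 rises and 14 falls, and library size alone gave 5 and 3. Falls numbered 4 without WT-10PEA replicate 1 and 3 without WT-10PEA replicate 2. Mos, the kinase that holds the egg at metaphase, dropped from 173 and 190 CPM to 56.6 and 17.2 CPM (log2 −2.29, SE 0.49, adjusted p = 0.0184). Ccnb1, the cyclin that must be destroyed to leave M phase, dropped from 6223 and 5543 CPM to 2814 and 2481 CPM (log2 −1.15, SE 0.22, adjusted p = 0.0135). Cdc20, an activator of the anaphase-promoting complex, dropped from 343 and 439 CPM to 127 and 145 CPM (log2 −1.52, SE 0.27, adjusted p = 0.011). Messages for that complex's subunits Cdc26 and Anapc10 and for its inhibitor Fbxo5 were also lower, by −1.30, −1.08 and −1.55 on the log2 scale, and Cks1b, a partner of the mitotic kinase, went from 8830 and 11397 CPM to 5069 and 5018 CPM (adjusted p = 0.0228). The 4 rises were of other members. Cdc25a, a phosphatase that activates Cdk1, rose from 67.7 and 50.3 CPM to 252 and 243 CPM (log2 2.07, SE 0.29, adjusted p = 0.00506). Its relative Cdc25b rose from 12.2 and 31.4 CPM to 137 and 138 CPM (log2 2.65, SE 0.44, adjusted p = 0.00816), and Cdk1 itself from 12.3 and 18.8 CPM to 73.2 and 59.3 CPM (log2 2.09, adjusted p = 0.012). The ubiquitin ligase gene Btrc was the fourth (log2 1.53).

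Other M-phase genes of note did not pass. Fbxo43, whose protein keeps the complex shut until calcium arrives, stood at 173 and 110 CPM in MII and at 129 and 130 CPM in 10PEA (adjusted p = 0.855). Wee2, the oocyte kinase that holds Cdk1 off, stood at 6076 and 4121 CPM and then at 4367 and 4971 CPM (adjusted p = 0.816). The securin gene Pttg1 had 6926 and 8845 CPM in MII and 5276 and 7172 CPM in 10PEA (adjusted p = 0.423). In all 3 the libraries of the groups overlap. Among the calls, that of Cdc20 was lost without WT-10PEA replicate 1, as was that of Cdc26, those of Ccnb1 and Fbxo5 without WT-10PEA replicate 2, that of Cks1b without either 10PEA library, that of Anapc10 without WT-MII replicate 2 or either 10PEA library, and that of Btrc without any 1 of the 4. Mos, Cdc25a, Cdc25b and Cdk1 passed each time, with Mos at −3.41 to −1.69.

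Spindle, polar body and cytokinesis genes had 6 falls and no rise among 46, with a median of −0.12. In all 13.04% passed, near the 11.1% of all genes (5.79% higher and 5.33% lower). DESeq2 called 12 falls and 3 rises, and library size alone gave 3 and 3. Falls numbered 3 without either 10PEA library, and 9, beside 2 rises, without WT-MII replicate 1. Aurkb, the kinase of the chromosomal passenger complex, stood at 93.2 and 93.9 CPM in MII and at 24.0 and 19.9 CPM in 10PEA (log2 −2.09, SE 0.34, adjusted p = 0.00708). Its germ cell relative Aurkc dropped from 952 and 961 CPM to 328 and 264 CPM (log2 −1.69, SE 0.25, adjusted p = 0.00575). Kif23, a motor of the midbody that seals cytokinesis, dropped from 1875 and 1897 CPM to 675 and 472 CPM (log2 −1.72, SE 0.26, adjusted p = 0.00627). The MII libraries lay within a few percent of each other for these genes. Cenpe and Ndc80 of the kinetochore and the spindle factor Tpx2 fell by 1.15, 1.09 and 1.10 on the log2 scale, calls that were lost without either 10PEA library.

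Of 41 genes of the machinery that destroys maternal messages, 8 fell and 2 rose (24.4% passed, against 5.33% lower and 5.79% higher over all genes). DESeq2 called 8 falls and 7 rises, and library size alone gave 5 and 7. The median of the list was 0.25. That median was −0.0029 without WT-MII replicate 2 and 0.15 without WT-10PEA replicate 2. Falls numbered 4 without WT-10PEA replicate 1, and rises 4 or 5 without each of the other libraries. Btg4, the adapter that brings the CCR4-NOT deadenylase to maternal messages, stood at 1856 and 2207 CPM in MII and at 750.3 and 571 CPM in 10PEA (log2 −1.62, SE 0.26, adjusted p = 0.00669). Pabpn1l, a poly(A)-binding partner of Btg4, went from 547 and 992 CPM to 246 and 149 CPM (log2 −1.96, SE 0.36, adjusted p = 0.0117). Dcps, which clears the caps left by decay, went from 212 and 236 CPM to 69.0 and 89.3 CPM (log2 −1.50, SE 0.29, adjusted p = 0.0126). The other falls were Exosc3 of the exosome (−2.55), the decapping cofactors Lsm1 (−2.16) and Lsm5 (−1.24), the m6A reader Ythdf2 (−1.24) and the exonuclease Xrn1 (−1.23). Cnot1, the scaffold of CCR4-NOT, rose from 38.8 and 38.4 CPM to 131 and 85.2 CPM (log2 1.48, adjusted p = 0.0239), and Edc3, an enhancer of decapping, from 16.5 and 15.3 CPM to 45.7 and 60.3 CPM (log2 1.73, adjusted p = 0.0207). The deadenylase Cnot7 and the decapping enzyme Dcp2 overlapped between the groups. Calls were lost for Dcps, Cnot1 and Lsm5 without WT-10PEA replicate 1, for Edc3 without WT-10PEA replicate 2, and for Ythdf2 and Xrn1 without either 10PEA library.

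Genes that store messages or control their poly(A) tail had 9 rises and no fall among 48, with a median of 0.42 with TMM and −0.06 with ERCC scaling. These rises were 18.8% of the list, against 5.79% of all genes. DESeq2 called 12 rises and 1 fall, and library size alone gave 13 and 0. Rises numbered 6 without WT-10PEA replicate 1, and also without WT-MII replicate 2, where the median was 0.18 and 1 gene fell. Ybx2, the germ cell protein that coats stored messages, stood at 8.27 and 10.6 CPM in MII and at 65.1 and 65.7 CPM in 10PEA (log2 2.79, SE 0.39, adjusted p = 0.0049). Pabpc1l, the embryonic poly(A)-binding protein, went from 48.4 and 79.3 CPM to 293 and 229 CPM (log2 2.03, SE 0.33, adjusted p = 0.00719). Rbpms2, an RNA-binding protein of oocytes, went from 41.4 and 32.8 CPM to 149.9 and 119 CPM (log2 1.86, SE 0.32, adjusted p = 0.00919). The others were Ybx1 (1.70), Stau1 (1.56), Ptbp1 (1.55), Igf2bp2 (1.30), Elavl2 (1.15) and Eif4enif1 (1.13), all RNA-binding proteins or, for the last, a partner of the cap-binding protein. Of these 9, Ybx2, Pabpc1l, Rbpms2, Stau1 and Ptbp1 passed without any 1 library. The call of Ybx1 was lost without WT-MII replicate 2, and that of Igf2bp2 without that library or WT-10PEA replicate 1. Eif4enif1 lost its call without WT-MII replicate 2 or either 10PEA library, and Elavl2 without any 1 of the 4.

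**Figure D3:**
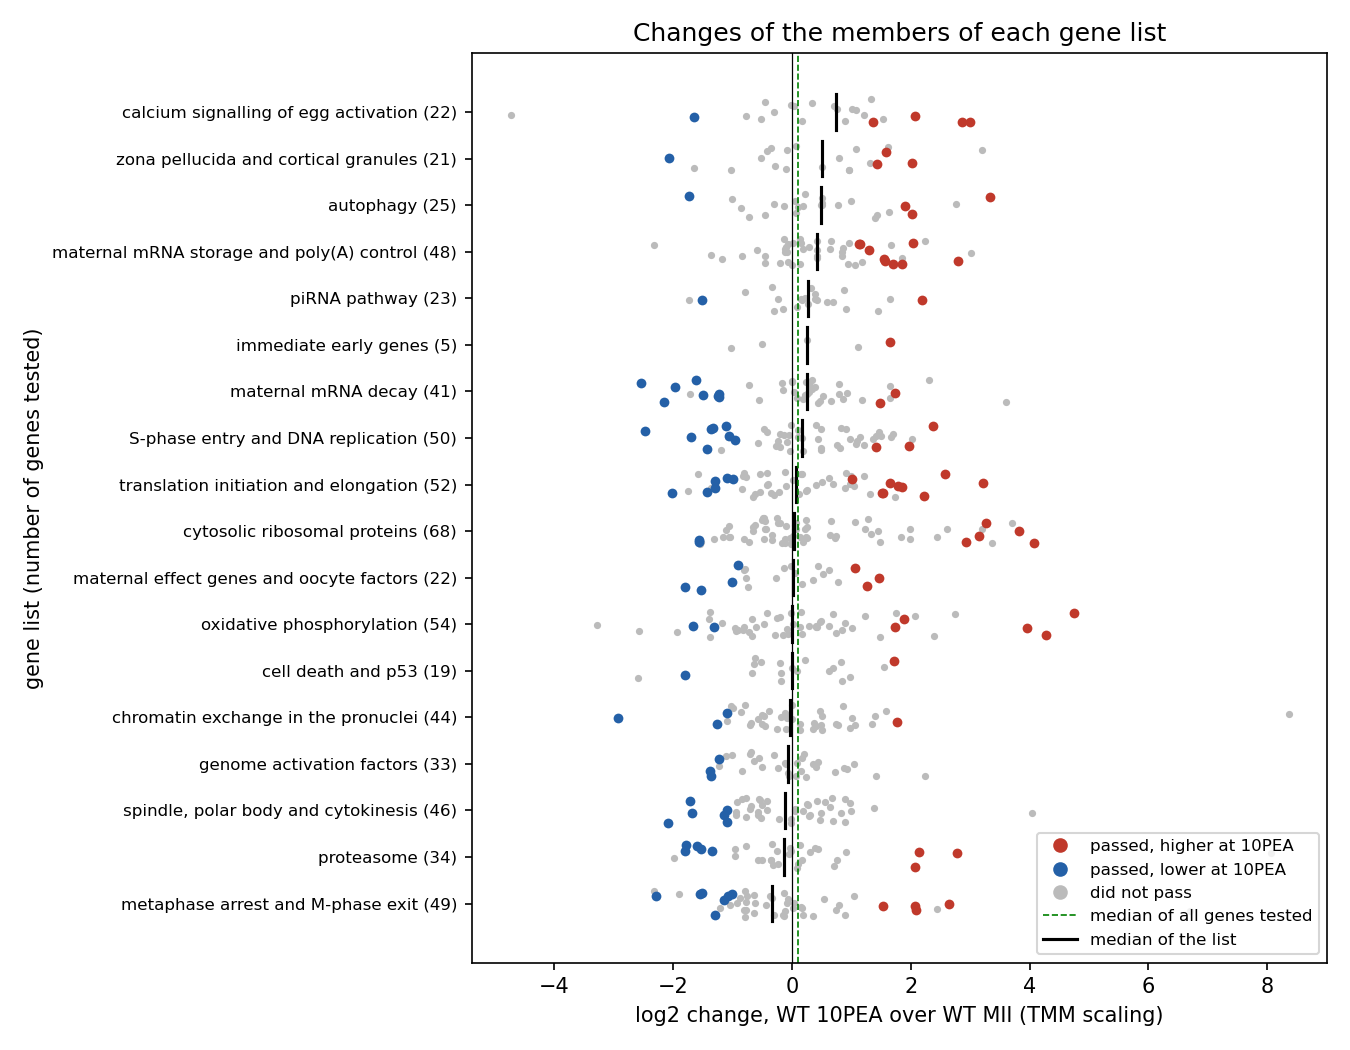
Log2 change from WT MII to WT 10PEA (horizontal) of the tested members of 18 gene lists (vertical, number tested in parentheses, ordered by median); red and blue points passed higher and lower, grey points did not pass, black bars are list medians and the green line the median of all genes. With TMM the storage list has 9 red points and no blue one, and the spindle list 6 blue points and no red one. Over all genes tested 5.79% passed higher and 5.33% lower, and the split of both lists changed with the setting.

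Maternal effect genes and oocyte factors had 3 rises and 4 falls among 22 (31.8% passed, against 11.1% of all genes), with a median of 0.02. Without WT-10PEA replicate 1 there were 0 rises and 2 falls, without WT-MII replicate 1 there were 7 falls, and without WT-MII replicate 2 there were 2 rises. Kpna7, the importin that carries cargo into the early nucleus, was one of the most counted messages at MII, at 7416 and 9746 CPM, and stood at 2813 and 2097 CPM in 10PEA (log2 −1.81, SE 0.26, adjusted p = 0.00502). Npm2, the chaperone that loosens sperm chromatin, went from 903 and 1398 CPM to 397 and 396 CPM (log2 −1.54, SE 0.28, adjusted p = 0.0114). Bcl2l10, a BCL2 family member of oocytes, and the ubiquitin ligase Rnf114 fell by 1.01 and 0.92 on the log2 scale. Gdf9, a growth factor the oocyte sends to its follicle cells, stood at 431 and 528 CPM in MII and at 1518 and 1130 CPM in 10PEA (log2 1.47, SE 0.26, adjusted p = 0.0112). Its partner Bmp15 rose from 863 and 615 CPM to 1533 and 1540 CPM (log2 1.06, adjusted p = 0.0302), and the deubiquitinase Uchl1 by 1.26. The calls of Gdf9, Uchl1 and Bcl2l10 were lost without WT-10PEA replicate 1, those of Rnf114 and Bmp15 without either 10PEA library, and that of Bmp15 also without WT-MII replicate 2.

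Of 44 genes that rebuild chromatin in the pronuclei, 1 rose and 3 fell, with a median of −0.03. That is 9.09% of the list, near the 11.1% of all genes. There were 2 rises and 5 falls without either MII library, and 3 rises without WT-10PEA replicate 2. Suv39h2, a methyltransferase for lysine 9 of histone H3, stood at 72.2 and 67.4 CPM in MII and at 235 and 239 CPM in 10PEA (log2 1.76, SE 0.27, adjusted p = 0.00659). Npm3, a chaperone of the nucleoplasmin family, went from 43.6 and 89.2 CPM to 9.47 and 7.93 CPM (log2 −2.93, SE 0.46, adjusted p = 0.00661). Dnmt1, the maintenance DNA methyltransferase, went from 9063 and 8601 CPM to 4068 and 4218 CPM (log2 −1.09, adjusted p = 0.0138). Srpk1, a kinase reported to act on sperm protamines in mouse, fell by 1.26 on the log2 scale. Tet3, the oxidase of the paternal genome, stood at 1255 and 562 CPM in MII and at 614 and 706 CPM in 10PEA, with overlap (adjusted p = 0.456). The call of Dnmt1 was lost without WT-10PEA replicate 1 and that of Srpk1 without WT-10PEA replicate 2.

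S-phase genes had 3 rises and 8 falls among 50 (22% passed, against 11.1% of all genes), with a median of 0.17. DESeq2 called 7 rises and 9 falls, and library size alone gave 8 and 3. Falls numbered 3 without either 10PEA library. Pcna, the sliding clamp of the replication fork, had the largest fall of the list and 1 of the 5 lowest p-values among all falling genes with a symbol. It stood at 1672 and 1291 CPM in MII and at 279 and 253 CPM in 10PEA (log2 −2.48, SE 0.26, adjusted p = 0.0031). Tipin, which protects stalled forks, went from 422 and 487 CPM to 151 and 130 CPM (log2 −1.70, SE 0.26, adjusted p = 0.00659). The thymidylate synthase Tyms, the origin factor Orc6, the single-strand binding subunit Rpa2, the licensing inhibitor Gmnn and the helicase cofactors Gins3 and Cdc45 fell by between −1.43 and −0.97. Orc5, another origin subunit, rose from 133 and 123 CPM to 350.01 and 338 CPM (log2 1.42, SE 0.26, adjusted p = 0.0116). Gins1 and Gins2, subunits of the GINS complex, rose by 1.97 and 2.37 while their partner Gins3 fell by 1.06. Calls were lost for Tyms without WT-10PEA replicate 1, for Orc6 without WT-10PEA replicate 2 and for Rpa2 and Gins3 without either 10PEA library. Gmnn and Cdc45 lost theirs without WT-MII replicate 2 or either 10PEA library, and Gins1 without WT-MII replicate 1 or WT-10PEA replicate 1.

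Of 33 factors of genome activation tested, 3 fell and 0 rose, with a median of −0.07. That is 9.09% of the list, near the 11.1% of all genes. Of the 33, 5 were higher in both 10PEA libraries than in either MII library, against 30.9% of all genes. Another 11 were lower in both, against 26.9% of all genes. Zfp42, a zinc finger protein known from stem cells, went from 417 and 445 CPM to 171 and 165 CPM (log2 −1.36, SE 0.25, adjusted p = 0.012). The nucleolar protein Ncl went from 772 and 640.1 CPM to 275 and 325 CPM (log2 −1.23, adjusted p = 0.0171). Eif1ax, an initiation factor that mouse embryos make early, went from 170 and 243 CPM to 84.3 and 73.3 CPM (log2 −1.39, adjusted p = 0.0199). All 3 calls were lost without either 10PEA library. Of 25 immediate early genes, which many cells transcribe within minutes of a stimulus, 5 passed the filter on low counts. Of these 5, 20% passed the test, against 11.1% of all genes. Fosl2 rose, from 13.5 and 10.3 CPM to 46.6 and 27.8 CPM (log2 1.65, adjusted p = 0.0461). That call was lost without either MII library or without WT-10PEA replicate 1. Btg1 was lower in both 10PEA libraries, at 49.1 and 40.4 CPM and then at 21.2 and 23.0 CPM, but did not pass (log2 −1.02, adjusted p = 0.108). Klf2 stood at 2.22 and 4.10 CPM and then at 11.5 and 2.24 CPM (adjusted p = 0.525).

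Of 34 proteasome subunit genes tested, 3 rose and 5 fell, with a median of −0.14. In all 23.5% passed, against 5.79% higher and 5.33% lower over all genes, and falls numbered 2 without WT-10PEA replicate 2 and 3 without WT-MII replicate 2. Psmc1, an ATPase subunit of the regulatory cap, went from 91.2 and 89.4 CPM to 783 and 458 CPM (log2 2.78, SE 0.32, adjusted p = 0.00312), and its neighbour in the same ring, Psmc2, from 21.7 and 31.1 CPM to 125 and 97.4 CPM (log2 2.08, SE 0.35, adjusted p = 0.00845). The catalytic subunit Psmb5 rose by 2.15, while the core subunits Psma7, Psma5 and Psmb3 fell by between 1.35 and 1.79 and the cap subunits Psmd11 and Psmd7 by 1.53 and 1.80. Psmc1, Psmc2, Psmb5 and Psma7 passed without any 1 library. Psma5 lost its call without WT-MII replicate 2, Psmd11 and Psmd7 without WT-10PEA replicate 2, and Psmb3 without WT-MII replicate 2 or either 10PEA library.

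Initiation and elongation factors of translation had 9 rises and 6 falls among 52 (28.8% passed, against 11.1% of all genes) and a median of 0.07. Without WT-10PEA replicate 1 there were 3 rises and 2 falls, without WT-10PEA replicate 2 there were 6 and 1, and without WT-MII replicate 1 there were 4 rises. Eef1a1, the factor that brings tRNA to the ribosome, went from 51.9 and 33.9 CPM to 299.7 and 214 CPM (log2 2.58, SE 0.34, adjusted p = 0.00427), and its exchange factor Eef1d from 9.75 and 10.6 CPM to 50.8 and 44.01 CPM (log2 2.22, SE 0.40, adjusted p = 0.0114). Eif5b, which joins the ribosomal subunits, went from 1162 and 1162 CPM to 499 and 365 CPM (log2 −1.43, SE 0.26, adjusted p = 0.0114), a call lost without WT-10PEA replicate 2. Among 68 ribosomal protein genes 5 rose and 2 fell, with a median of 0.03, and the 10.3% that passed is near the 11.1% of all genes. Rpl7a stood at 2.96 and 6.05 CPM and then at 76.6 and 51.5 CPM (log2 3.82, SE 0.49, adjusted p = 0.0041), Rpl10a rose by 4.08 and Rpl7 by 3.15, all from a few CPM, with Rpl19 and Rpl7l1 behind them. Rpl10l and Rpl11 fell by 1.57 each and lost the call without WT-10PEA replicate 1, and also without WT-10PEA replicate 2 (Rpl10l) or WT-MII replicate 2 (Rpl11). Ribosomal protein genes have many near-identical copies, so their counts are uncertain.

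Oxidative phosphorylation had 5 rises and 2 falls among 54 genes (12.96% passed, near the 11.1% of all genes), with a median of 0.00. Falls numbered 0 without either 10PEA library and 5 without WT-MII replicate 1, and rises 3 without WT-10PEA replicate 1. Atp5f1a, the alpha subunit of the ATP synthase, went from 35.8 and 53.6 CPM to 150.1 and 146 CPM (log2 1.73, SE 0.32, adjusted p = 0.012), and the complex I subunits Ndufs8 and Ndufv1 rose from about 1 CPM by 3.96 and 4.75. Autophagy had 3 rises and 1 fall among 25 (16% passed, against 11.1% of all genes), with a median of 0.49 that was 0.19 without WT-MII replicate 2. Atg2a, which transfers lipid to the growing membrane, went from 2.96 and 2.38 CPM to 30.8 and 23.1 CPM (log2 3.33, SE 0.55, adjusted p = 0.00798). Atg7 and Ambra1 rose by 1.90 and 2.02, calls lost without WT-MII replicate 1 (Atg7) and without WT-MII replicate 2 or WT-10PEA replicate 1 (Ambra1). Atg10 fell by 1.74 and lost its call without WT-MII replicate 2 or WT-10PEA replicate 2.

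The piRNA pathway, in which Pld6 acts, had 1 rise and 1 fall among 23 genes, 8.70% of the list and near the 11.1% of all genes. Mael, a nuage protein, went from 13.3 and 12.1 CPM to 73.4 and 42.1 CPM (log2 2.18, SE 0.42, adjusted p = 0.013), and Tdrkh, a Tudor protein of the mitochondrial surface, from 197 and 126 CPM to 68.6 and 44.7 CPM (log2 −1.51, SE 0.35, adjusted p = 0.0258). These calls were lost without WT-10PEA replicate 1 (Mael) and without WT-10PEA replicate 2 (Tdrkh). Pld6 itself stood at 7.28 and 11.2 CPM in MII and at 9.19 and 13.8 CPM in 10PEA, with overlap (adjusted p = 0.805). Piwil1 had 50 and 50.2 CPM and then 73.3 and 89.2 CPM (adjusted p = 0.191), and Piwil3, the PIWI gene that mice lack, 14.4 and 16.0 CPM and then 14.9 and 30.8 CPM (adjusted p = 0.514). The end-modifying methyltransferase Henmt1 lay just outside, at 195 and 179 CPM and then 316 and 371 CPM (adjusted p = 0.0582). Of 19 cell death and p53 genes 10.5% passed, near the 11.1% of all genes. The survival factor Bcl2l1 rose from 88.3 and 81.4 CPM to 341 and 216 CPM (log2 1.71, adjusted p = 0.0111) and the checkpoint kinase Chek2 fell from 51.5 and 60.3 CPM to 18.2 and 13.8 CPM (log2 −1.80, adjusted p = 0.0179). Bcl2l1 lost its call without WT-10PEA replicate 1 and Chek2 without WT-10PEA replicate 2.

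The largest rises were of genes with no or almost no count at MII. Tlnrd1, Leng8, Drap1, Poll, Ric8a, Hipk1, Sh3tc2, Gsg1 and Tsen54 had none, and were at least 30.6-fold (Tsen54) to 57.9-fold (Tlnrd1 and Drap1) higher with the same floor. Leng8, an RNA-processing factor, stood at 10.8 and 8.94 CPM in 10PEA, and the DNA polymerase gene Poll at 10.2 and 6.81 CPM. Riox1, Actl7a and Mpi had 1 to 3 counts at MII and 11.4, 5.33 and 9.62 CPM on average at 10PEA, and Ap5s1 had 0.741 and 0 CPM and then a mean of 22.1 CPM. Saraf, an inhibitor of store-operated calcium entry that acts on channels such as Orai1, was counted in every library. It went from 1.23 and 1.30 CPM to 83.8 and 79.0 CPM (log2 5.99, SE 0.45, adjusted p = 0.000733). The calls of Drap1, Ric8a and Tsen54 were lost without WT-10PEA replicate 1, those of Hipk1 and Riox1 without WT-10PEA replicate 2 and that of Mpi without WT-MII replicate 2. Sh3tc2 lost its call without WT-MII replicate 2 or WT-10PEA replicate 2, Gsg1 without WT-MII replicate 2 or WT-10PEA replicate 1, and Actl7a without WT-MII replicate 2 or either 10PEA library.

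Among the largest falls were Id2 and Id3, which encode inhibitors of helix-loop-helix transcription factors. Id2 went from 78.1 and 146 CPM to 8.91 and 5.90 CPM (log2 −3.91, SE 0.45, adjusted p = 0.00312), and Id3 from 6.42 and 22.03 CPM to 0.743 and 0 CPM (adjusted p = 0.0276). Their relative Id1 did not pass (log2 −0.21, adjusted p = 0.903). Ostm1, a partner of a lysosomal chloride transporter, went from 78.5 and 130 CPM to 14.8 and 7.83 CPM (log2 −3.21, SE 0.45, adjusted p = 0.0049). Ppp1r15a, which helps reverse a stress block of translation, went from 13.2 and 23.1 CPM to 1.86 and 2.24 CPM (log2 −3.14, adjusted p = 0.0171). Another 10 were Mgam, Hmgb3, Pex26, Ccdc127, Mesp2, Mtrfr, Nudt2, Rac3, Fgf20 and Sdk2, with means of 5.69 to 16.1 CPM in MII and 0.0929 to 1.43 CPM in 10PEA. Id3, Mesp2, Mtrfr, Nudt2 and Ppp1r15a lost the call without WT-MII replicate 2, Pex26 without WT-MII replicate 1, Sdk2 without WT-MII replicate 2 or WT-10PEA replicate 2, and Hmgb3 without either MII library or WT-10PEA replicate 1.

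Some of the clearest changes lay outside the 18 gene lists. Of the genes that follow, Pcna is in the S-phase list and Csf1r is among the blood and leukocyte markers. The 5 genes with a symbol and the lowest p on each side, chosen after their values were seen, were Saraf, Gle1, Csf1r, Ciapin1 and Pnrc1 among rises and Pcna, Ttc32, Id2, Tmem230 and Hsp90aa1 among falls. Gle1, which drives export of mRNA through the nuclear pore, went from 13.3 and 13.1 CPM to 308 and 211 CPM (log2 4.29, SE 0.34, adjusted p = 0.000915). Ciapin1, a cytosolic iron-sulfur protein, went from 73.7 and 70.7 CPM to 734 and 485 CPM (log2 3.08, SE 0.30, adjusted p = 0.00305). Hsp90aa1, the inducible HSP90 chaperone, went from 1603 and 2141 CPM to 362 and 417 CPM (log2 −2.26, SE 0.26, adjusted p = 0.00312). The most counted gene with a symbol that rose was Oser1, an oxidative stress responsive gene, from 1018 and 1473 CPM to 7428 and 5162 CPM (log2 2.34, SE 0.29, adjusted p = 0.00396). All 11 kept their call without any 1 library.

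The 10 most counted genes with a symbol were picked by their mean level over all 4 libraries. Of these, Ypel5, Cks1b, Bcl2l10, Paip1, Dnmt1, Ezhip, Rdx and Kpna7 fell, where 5.33% of all genes tested fell. That share covers genes at every level, not the most counted alone. Dppa3, which shields the maternal genome from demethylation, and Pttg1 did not pass. Dppa3 stood at 12230.4 and 17636 CPM in MII and at 7454 and 10503 CPM in 10PEA (log2 −0.73, adjusted p = 0.102). Ezhip, an inhibitor of the PRC2 complex, went from 8821 and 7709 CPM to 3145 and 3113 CPM (log2 −1.40, SE 0.22, adjusted p = 0.00661), and Rdx, a linker of membrane and actin, from 6828 and 8893 CPM to 3103 and 3356 CPM (log2 −1.28, SE 0.23, adjusted p = 0.0115). Ezhip, Rdx and Kpna7 kept the call without any 1 library, whereas Ypel5 and Paip1, at −0.84 and −0.90, lost theirs without WT-10PEA replicate 1, and Ypel5 also without WT-MII replicate 2 or WT-10PEA replicate 2.

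The neighbouring stages of the series place these levels in a longer course. Each wild-type stage has 2 libraries: GV oocytes, which still hold the germinal vesicle, come before MII, and embryos labelled 1C-20PEA, 33PEA and 54PEA come after 10PEA. Since the genes were chosen by their MII and 10PEA levels, what follows describes them and tests nothing. The 670 rises had a median of 61.8 CPM at GV, 12.9 at MII, 57.7 at 10PEA, 65.3 at 1C-20PEA, 15.8 at 33PEA and 9.80 at 54PEA, so their 10PEA level was close to that before maturation. All genes tested went from 17.9 CPM at GV to 11.9, 14.1, 14.4, 7.94 and 5.99 CPM. The 616 falls had medians of 97.8, 206.5, 75.4, 65.1, 49.1 and 37.8 CPM, with MII as the peak.

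Single genes show such courses. Zp2 stood at 1698 and 2656 CPM at GV, at 249 and 203 CPM at MII, at 667 and 681 CPM at 10PEA and at 1345 and 1182 CPM at 1C-20PEA, and then at 102 and 91.0 CPM at 33PEA. Psmc1 went from 1007 and 1153 CPM at GV to 91.2 and 89.4 CPM and back to 783 and 458 CPM, and Saraf from 119 and 94.5 CPM to 1.23 and 1.30 CPM and back to 83.8 and 79.0 CPM. Oser1 ran at 12438 and 16185 CPM at GV, 1018 and 1473 CPM at MII and 16306 and 16172 CPM at 1C-20PEA. Cdc25a followed another course, with 75.0 and 47.5 CPM at GV, much as at MII, before 252 and 243 CPM at 10PEA. Rpl7a kept climbing to 1008 and 1250 CPM at 54PEA.

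The falls divided likewise. Kpna7 stood at 2124 and 2761 CPM at GV and was highest at MII, with 7416 and 9746 CPM. Ccnb1, at 1499.9 and 2099.7 CPM at GV, Cdc20, at 87.0 and 113 CPM, and Aurkb, at 23.6 and 32.5 CPM, were also lower there than at MII in both libraries. Btg4 was as high at GV, at 1655 and 2047 CPM, as at MII. Mos had already dropped once, from 867 and 959 CPM at GV to 173 and 190 CPM at MII, and both 54PEA libraries had none. Btg4 stood at 890 and 1645 CPM at 1C-20PEA and at 1.49 and 11.2 CPM at 33PEA. Ccnb1 was high again at 33PEA, with 7721 and 6339 CPM.

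**Figure D4:**
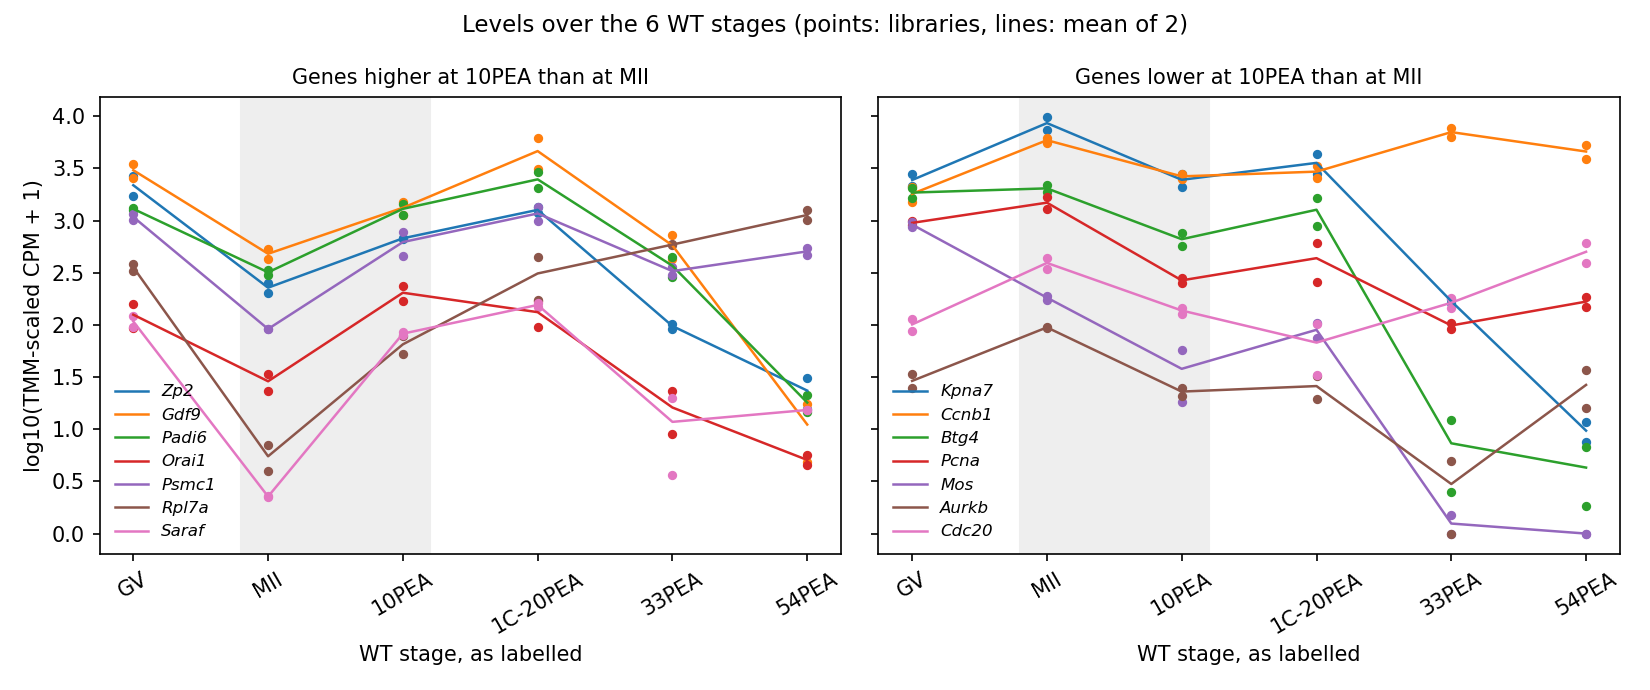
Level of 7 genes that rose (left) and 7 that fell (right) between MII and 10PEA over the 6 wild-type stages (horizontal, in the labelled order), as log10 of TMM-scaled CPM plus 1; points are single libraries, lines join the means of 2 and the grey band marks MII and 10PEA. On the left all 7 genes have their lowest point of the first 4 stages at MII, while on the right Kpna7, Pcna, Cdc20 and Aurkb have their highest point of those stages there.

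The same step in libraries labelled Pld6 KO, 2 of MII oocytes and 2 of 10PEA embryos that share no sample with those above, offered a look at the directions in other eggs, of another genotype. There 0 of 10942 genes passed (0%), with 763 at an unadjusted p under 0.05. DESeq2 called 169 higher and 60 lower, and edgeR with the replicate number as a block 49 and 17. Without KO-10PEA replicate 2 there were 4 and 1, and without KO-MII replicate 1 there were 1 and 0. These libraries spread more, with a common dispersion of 1.09 against 0.25. Of the 670 rises, 631 were tested in KO and 584 of these (92.6%) were above 0, with a median of 1.85. Of the 616 falls, 612 were tested and 567 (92.6%) were below 0, with a median of −0.98. Over the 10288 genes tested in both, 48.3% were above 0 in KO and the median was −0.06.

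Gene by gene, Izumo1r stood at 371 and 446 CPM in the KO MII libraries and at 2319 and 1902 CPM in the KO 10PEA libraries, and Psmc1 at 55.1 and 71.4 CPM and then at 615 and 1256 CPM. Oser1 stood at 1050.2 and 969.8 CPM and then at 9022 and 9543 CPM. In all 3 the KO libraries separate as the WT ones did. These 3 are among the genes that passed in WT. How many genes separate in KO was not counted, and 57.8% of all genes tested did in WT. Btg4 had 1202 and 2759 CPM and then 858 and 839 CPM. Pcna did not follow. It stood at 2580 and 6255 CPM in KO MII and at 2818 and 5714 CPM in KO 10PEA, a log2 change of 0.01 (SE 0.80) against −2.48 in WT. Orai1 had 119 and 12.6 CPM and then 114 and 54.2 CPM. The test of the difference between the KO step and the WT step, in 1 fit of 8 libraries, passed for 0 of 12847 genes (0%), with 477 at an unadjusted p under 0.05 and an adjusted p of 1.00 for Pcna and for Orai1. DESeq2 called 12 higher and 2 lower in that test, and edgeR called 16 higher and 226 lower without KO-10PEA replicate 1 and 2 and 5 without KO-MII replicate 2. A difference for Pcna is therefore neither shown nor bounded closely by these libraries, since its estimate was 2.42.

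**Figure D5:**
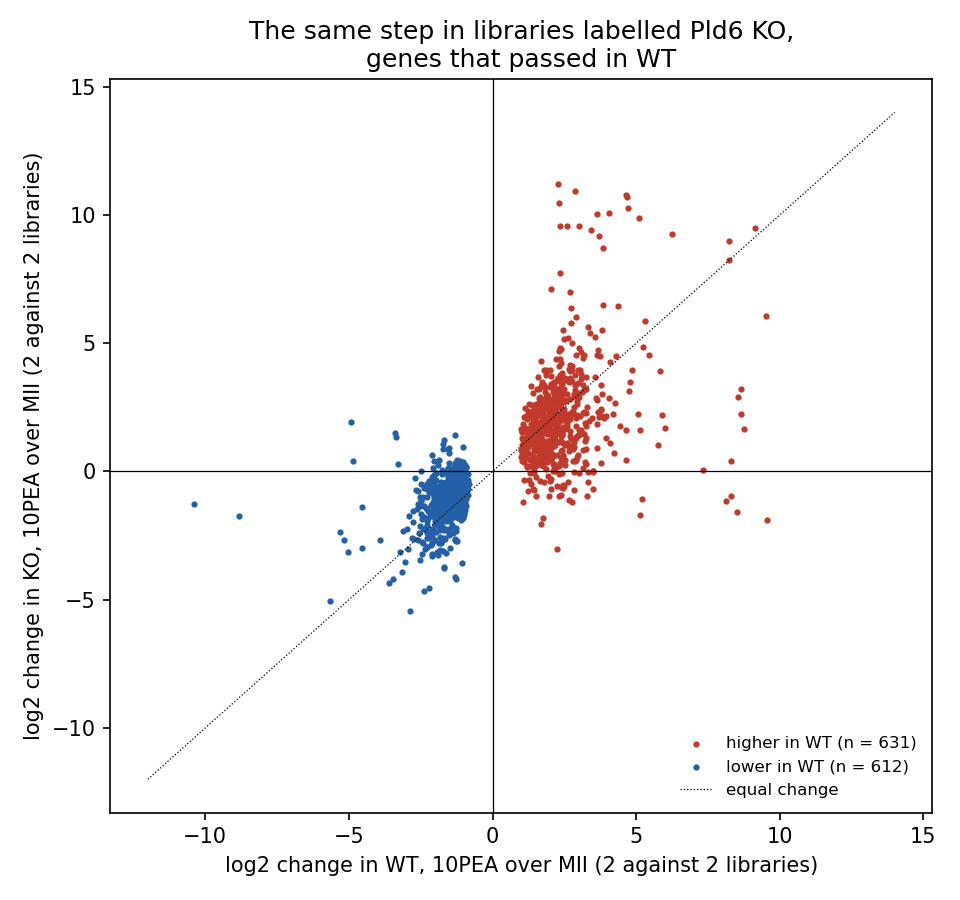
Log2 change from MII to 10PEA in WT (horizontal) and in libraries labelled Pld6 KO (vertical) for the genes that passed in WT and were tested in KO; red points were higher in WT (n = 631) and blue points lower (n = 612), and the dotted line marks equal change. Most red points lie above 0 and most blue points below 0 in KO.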

How the data were processed

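The deposited tables hold unnormalised counts of reads for every gene, as the authors obtained them. Tools that the submitters' processing notes name are featureCounts, STAR 2.7.1a, Trim Galore and TopHat. What each one did, the genome build and the strand setting are not given in the sources used here, so overlapping and near-identical genes may share reads. Each table has 32303 gene rows and 92 ERCC rows, and 31882 names match a RefSeq symbol of assembly BCM_Maur_2.0. Of a KO-10PEA table, 8 lines that name no gene were dropped.

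The 4 libraries were filtered with filterByExpr, scaled by TMM without the ERCC rows and tested with edgeR 4.0.16 (R 4.3.3), using its quasi-likelihood method. Benjamini-Hochberg adjustment covered all genes tested, and those under an adjusted p of 0.05 are said to rise or fall. Levels are CPM on TMM-scaled library sizes, and other stages were scaled to the same reference. A standard error was taken as the log2 change divided by the square root of its F value. For a gene absent from a group, the fold against 3 counts over that group is given, a floor that covers counting error only. No fold is given at 1 to 3 counts. A second fit set library sizes to ERCC counts. The KO step and the KO minus WT step used the same test. The members and the gene lists were chosen with earlier results of these data known. Named genes were the 15 largest rises and falls with a symbol, no overlap and a mean of 5 CPM or more in the higher group, up to 3 members per list by p, the 10 most counted genes and a set of 8 (Pld6, Piwil1, Piwil3, Btg4, Mos, Ccnb1, Fbxo43 and Tet3). Other list members that passed, and some genes given beside them that did not pass, were named after their values were seen. Counts were simulated for the 11568 genes with 200 changed, and with a spread that followed the trend with level. The test recovered 5.5% of changes of 1 on the log2 scale, 60% of changes of 2 and 90% of changes of 3, with 0, 8 and 11 false calls. The changed genes were drawn from those above a set mean count, so recovery at low counts was not simulated. The 200 changed genes are fewer than the 1286 that passed in the data, so these shares need not hold for the data. Alternatives were RLE, ERCC and library-size scaling, other filters, DESeq2 1.42.0, voom of limma 3.58.1, a replicate block, fits with more libraries and leaving out each library. Testis and small RNA samples were not analysed here. A few genes that the rule names are not reported here.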

Additional observations from a re-analysis of the deposited data

How the results depend on the processing

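Every setting kept the sign of all genes called with TMM that it tested. These genes separated the groups without overlap in the same counts. Their sign could therefore hardly have reversed, and its being kept is no independent support. The 670 rises and 616 falls became 1 and 2 with ERCC scaling, 1122 and 231 with library size alone, 958 and 1004 with no filter, 1024 and 1063 with DESeq2, 859 and 941 with limma voom, and 0 and 0 in fits of 8 libraries of WT and KO (935 at an unadjusted p under 0.05, common dispersion 0.786) or of all 26 (477, dispersion 1.07), where 1 spread covers all groups. DESeq2 shared 668 and 616 of the calls. Leaving out 1 library gave 516 to 780 rises and 271 to 829 falls, the lowest count of falls without WT-10PEA replicate 2. The replicate numbers are not known to pair libraries. Same-numbered libraries' deviations correlated at −0.07 on TMM-scaled levels, which cannot show a shift in gene counts per ERCC count. Those were higher in replicate 1 than in replicate 2 at MII (99.2 against 48.7) and at 10PEA (64.9 against 25.8). The same held in the KO libraries at MII (75.9 against 23.2) and at 10PEA. Whether replicate numbers mark a batch was not tested. The replicate block gave 634 rises and 532 falls, and with ERCC scaling 405 and 1063 against 21 and 10 for DESeq2 on that scale. Without 1 library ERCC scaling called 0 to 5 rises and 0 to 0 falls, with a median of all genes of −1.18 to 0.62. The log2 difference in gene counts per ERCC count was −1.43 to −0.10 without 1 library. The KO step had 169 and 60 calls with DESeq2, 49 and 17 with the replicate block, and 0 to 4 and 0 to 1 without 1 library. KO minus WT had 12 and 2 with DESeq2, 0 and 0 with the block, and 0 to 16 and 0 to 226 without 1 library, the highest without KO-10PEA replicate 1, whose gene counts per ERCC count were 114 against 7.72 in its partner. The causes were not tested.

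Of 91 genes named by rule that passed, 53 kept the call without any 1 library and 38 lost it. Directions reversed only for genes that did not pass. With ERCC scaling Odf2 was at −0.37 and Pld6 at −0.027, and with library size alone Pttg1 at 0.048 and Fbxo43 at 0.25. Leaving out 1 library, the log2 change ran from −0.041 to 0.62 for Pld6, −0.46 to 0.16 for Fbxo43, −0.97 to 0.15 for Tet3, −1.12 to 0.39 for Amhr2, −0.19 to 0.63 for Odf2, −0.51 to 1.85 for Klf2 and −0.037 to 1.00 for Piwil3. With 2 libraries a group, changes under 4-fold were often missed in the simulation, where fewer genes changed than passed in the data.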
